A study of Mus musculus with 4 samples.

Results

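The forkhead family comprised 43 of the 21938 protein-coding genes of the mouse annotation, taken as every gene whose symbol is Fox, 1 subclass letter from a to s and a number, with *Foxj1* left out. Forkhead transcription factors share a winged helix domain that binds DNA at a short core motif. Their subclasses divide much of development between them. The FOXP proteins act as repressors in neurons, the FOXO proteins carry insulin and PI3K-AKT signals to genes of stress resistance and stem cell quiescence, and *Foxm1* drives genes of mitosis. Most other subclasses pattern the endoderm, the mesoderm, the neural crest or the placodes and are not expressed in most forebrain cells. Such developmental genes typically lie in CpG islands (CGIs), stretches of DNA rich in CpG that are often covered by Polycomb marks.

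KDM2B brings a Polycomb repressive complex to CGIs through its CxxC zinc finger, and the study asked how chromatin changes in the hippocampus when that finger is lost. ATAC-seq, in which Tn5 transposase tags open chromatin, was performed on hippocampi of mice at postnatal day 0 (P0), with 2 cKO and 2 Ctrl samples. The cKO animals carried *Kdm2b*Emx1-delta-CxxC, in which Cre driven from *Emx1*, a gene of the dorsal telencephalon, removes the exon for the zinc finger. Vessels, meninges and interneurons born in the ventral telencephalon do not pass through *Emx1* cells and keep the exon. The Ctrl animals were *Kdm2b*fl/+ or *Kdm2b*fl/fl, without a statement of which library had which, and both groups share the floxed allele. In the labels, neural progenitor cells stand as the source, whereas titles and protocol name hippocampal tissue. Whether replicates came from separate animals or litters is not given, so any p-value measures only the spread between these libraries.

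Each library (Ctrl rep1, Ctrl rep2, cKO rep1 and cKO rep2) contributed 1 list of peaks, called on its own. The lists ranged from 7037 peaks in Ctrl rep2 to 46389 in Ctrl rep1, and Ctrl rep2 stood apart. In that library 60.6% of peaks were repeat-masked (at least 50% of their bases in annotated repeats), against 5.37 to 14.7% in the other 3. The estimated number of fragments was 14.6 M to 29.6 M per library (M, mega), highest in Ctrl rep2. The estimate took the background depth recovered from the folds and p-values, an assumed genome size and the shortest peak width as fragment length. A median peak rested on 18 to 20 fragments, recovered from the folds and p-values. Of 9 dorsal telencephalic and hippocampal markers, among them *Emx1*, *Emx2*, *Lhx2* and *Pax6*, 8 had a promoter peak in Ctrl rep1, 5 in cKO rep1 and 9 in cKO rep2, but none in Ctrl rep2. Of 6 ventral telencephalic and interneuron markers, 4, 0, 1 and 2 had one in Ctrl rep1, Ctrl rep2, cKO rep1 and cKO rep2, of 4 endothelial markers *Kdr* in Ctrl rep1 and cKO rep1, and of 3 choroid plexus markers *Ttr* in all but Ctrl rep2. No microglial marker of 4 and no marker of other tissues of 4 had one in any list. In bulk tissue, fewer cells of a type and less open chromatin per cell cannot be told apart.

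Promoters were taken as the sequence within 2 kb of a transcription start site (TSS) of the basic annotation, and they held a peak when its summit lay there. A promoter peak was found at 20 of the 43 forkhead genes in Ctrl rep1 (background 58.0% of protein-coding genes), at 1 in Ctrl rep2 (8.27%), at 17 in cKO rep1 (40.3%) and at 23 in cKO rep2 (55.9%). The mean was 20 ± 4.24 genes in cKO and 10.5 ± 13.4 in Ctrl (SD, n = 2 libraries each). The difference of 9.5 genes was smaller than the SD of the Ctrl libraries, and it was 0 without Ctrl rep2. In total, 25 forkhead genes were open (a promoter peak in 1 list or more) and 18 were closed in every list. The open share was 58.1% of the family (background 60.2% of protein-coding genes) and 64.1% of the 39 members with a CGI (89.6% of those with a CGI).

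The genes were grouped by known expression, with earlier results of these data known, and differences between the groups were not tested. All 5 neural genes had a promoter peak in Ctrl rep1 and in both cKO libraries, and all 10 broadly expressed genes had one in Ctrl rep1 and in cKO rep2, 7 in cKO rep1 and 1 in Ctrl rep2. All of these genes have a CGI, and among protein-coding genes with a CGI the share was 87.4%, 13.6%, 63.8% and 85.2% in Ctrl rep1, Ctrl rep2, cKO rep1 and cKO rep2. Of the 24 patterning genes, 5, 5 and 8 had one in Ctrl rep1, cKO rep1 and cKO rep2. None of the 4 tissue-restricted genes did in any list. Of these, *Foxr1* alone has a CGI. Among protein-coding genes without a CGI the share was 21.3%, 1.57%, 10.8% and 19.1% in Ctrl rep1, Ctrl rep2, cKO rep1 and cKO rep2.

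**Figure D1:**
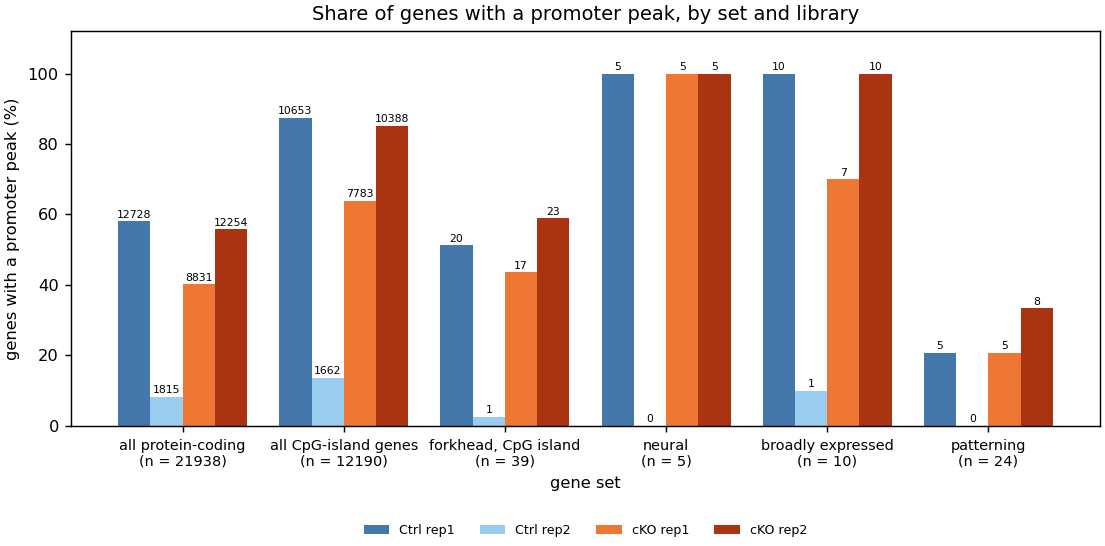
Share of genes with a promoter peak (%, bars; the number above each bar is the count of genes) in each of the 4 libraries, for all protein-coding genes, those with a CpG island, and forkhead genes by group. Neural and broadly expressed forkhead genes reach 100% in Ctrl rep1 and cKO rep2, while patterning genes stay at 20.8% and 33.3%.

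CGIs were present at open and at closed forkhead promoters. An island overlapped the promoter of 39 forkhead genes, all but *Foxi1*, *Foxn1*, *Foxp3* and *Foxr2*, and of 12190 protein-coding genes in all. Of the 39 forkhead genes with an island, 51.3%, 2.56%, 43.6% and 59.0% had a promoter peak in Ctrl rep1, Ctrl rep2, cKO rep1 and cKO rep2. Each share lay below that of all island genes given above, by the largest margin in Ctrl rep1. Forkhead promoters held a median of 2 islands, against 1 over all island genes. Summed, islands covered a median of 1147 bp at the 25 forkhead genes with a promoter peak and 1312.5 bp at the 14 island genes of the family with none, against 577 bp over all 12190 island genes. The longest island of a promoter had a median of 650 bp, 629 bp and 474 bp in the same order. For the 23 patterning genes with an island, the median was 1168 bp summed and 674 bp for the longest island. The difference between open and closed genes was not tested.

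The RefSeq promoter table (GRCm38.p6) held 28 of the 43 genes. In the 250 bases before the start, these held a median of 16.5 CpG, against 6 over the 32851 promoters of the table, of which 92.1% held at least 1. The GC box GGGCGG, searched on both strands, was found in 20 of the 28 (71.4%) and in 32.7% of all promoters in the table. Genes with a promoter peak had a median of 20 CpG (17 genes) and those with none a median of 12 (11 genes). Only the 11 include genes without an island (*Foxi1*, *Foxn1*, *Foxp3* and *Foxr2*). Some RefSeq starts lie far from the GENCODE gene start, as at *Foxn3* (113508 bp) and *Foxp3* (6032 bp). Some stretches are wholly exonic, such as that of *Foxj2*. The promoters of 2 open genes and 1 closed gene follow, with CpG in capitals. Counts ran from 3 to 48 in open and from 3 to 22 in closed genes, so these 3 do not cover the lower part. *Foxk2*, with 48 CpG, was open in 2 lists. *Foxd2* was also open in 2 lists and has 16 CpG. *Foxd3*, a neural crest gene with 21 CpG, had no promoter peak and no peak within its body or 20 kb of it.
Foxk2, chr11:121259737-121259986, plus strand: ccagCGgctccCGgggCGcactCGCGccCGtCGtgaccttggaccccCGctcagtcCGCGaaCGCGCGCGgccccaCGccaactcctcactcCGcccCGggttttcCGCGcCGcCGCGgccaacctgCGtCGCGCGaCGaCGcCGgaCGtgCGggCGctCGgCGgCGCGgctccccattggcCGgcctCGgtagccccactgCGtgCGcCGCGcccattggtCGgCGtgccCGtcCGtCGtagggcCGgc
Foxd2, chr4:114908899-114909148, minus strand: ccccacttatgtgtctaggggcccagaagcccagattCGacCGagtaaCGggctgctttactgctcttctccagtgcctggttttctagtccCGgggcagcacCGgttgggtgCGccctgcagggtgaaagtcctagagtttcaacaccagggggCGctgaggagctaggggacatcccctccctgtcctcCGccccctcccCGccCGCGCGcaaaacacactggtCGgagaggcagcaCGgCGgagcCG
Foxd3, chr4:99656049-99656298, plus strand: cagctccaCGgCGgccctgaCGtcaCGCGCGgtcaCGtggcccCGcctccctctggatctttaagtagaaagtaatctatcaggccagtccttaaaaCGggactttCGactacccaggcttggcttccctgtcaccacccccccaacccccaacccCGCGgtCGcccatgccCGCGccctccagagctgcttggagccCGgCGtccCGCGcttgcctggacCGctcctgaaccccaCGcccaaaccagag

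Genes were ranked within each library. For each gene, the promoter percentile gives the percentage of protein-coding genes with a lower best −log10 p among promoter peaks, and it is 0 without any. It depends on list length, since the weakest promoter peak of a list ranks at 42.0% in Ctrl rep1, 91.7% in Ctrl rep2, 59.7% in cKO rep1 and 44.1% in cKO rep2. A weak peak of a short list can thus outrank a stronger one of a long list, and an order of libraries by percentile is not an order of openness. Over the 43 genes its mean was 32.0% in Ctrl rep1, 2.28% in Ctrl rep2, 28.7% in cKO rep1 and 35.3% in cKO rep2. Over all protein-coding genes it was 41.2%, 7.93%, 32.1% and 40.2%. The family mean was 14.8 points higher in cKO than in Ctrl, and the difference was −0.0397 points without Ctrl rep2, −0.798 in equal-size lists and 0.993 with genes lacking a peak at their mid-rank.

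**Figure D2:**
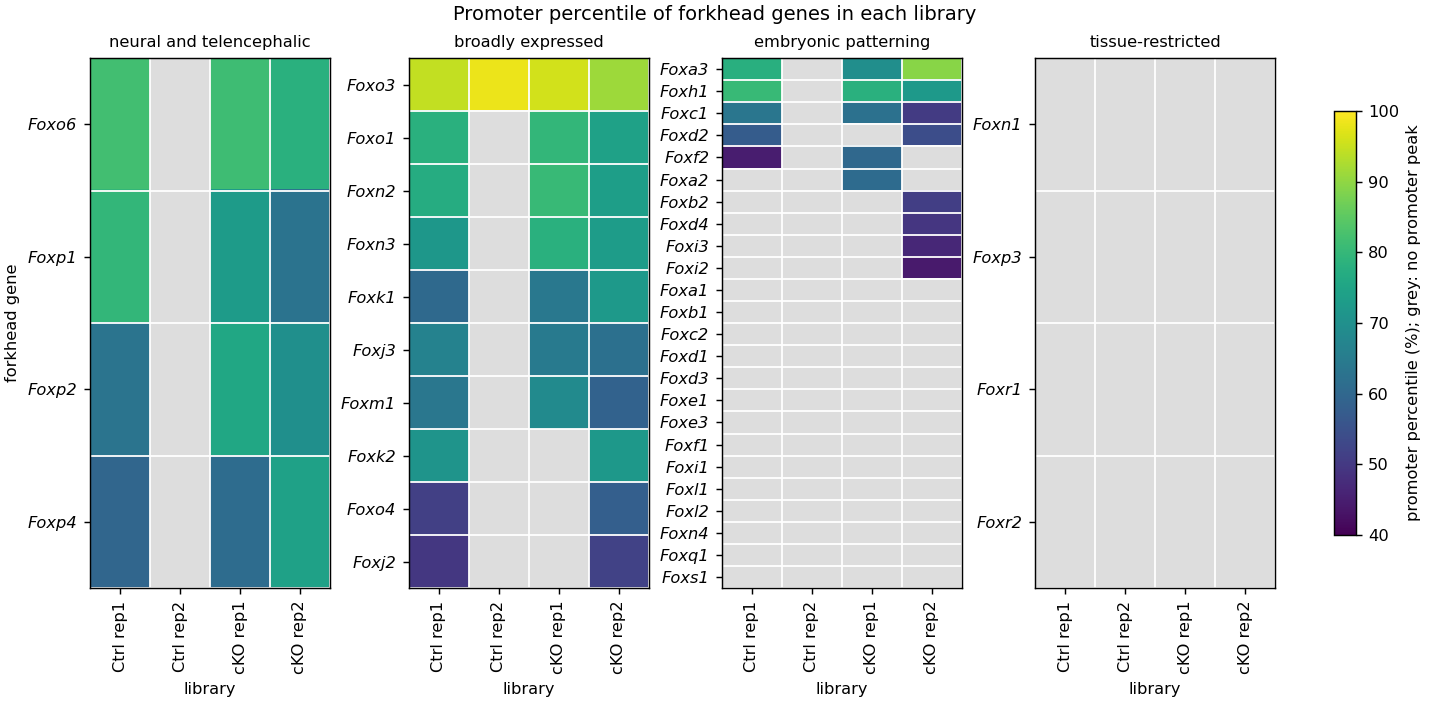
Promoter percentile (colour, %) of forkhead genes (rows, by group) in each library (columns), with grey for no promoter peak. *Foxo3* is coloured in all 4 columns, Ctrl rep2 is grey for every other gene, and the lower part of the patterning panel is grey throughout.

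Of the neural genes, 4 are described here, *Foxo6*, a brain-enriched FOXO gene, and *Foxp1*, *Foxp2* and *Foxp4*, repressors of neuronal and glial programmes. *Foxo6* ranked at 81.8%, 81.4% and 78.1% in Ctrl rep1, cKO rep1 and cKO rep2, with 77, 37 and 65 fragments at a summit 532 to 562 bp upstream of its TSS, and had no promoter peak in Ctrl rep2. Its groups overlapped, since cKO rep2 lay below Ctrl rep1. With 2 libraries a group, the smallest p that an exact permutation test of a difference can give is 0.333. *Foxp1* ranked at 79.8%, 73.0% and 62.8% in the same order, highest in Ctrl rep1. Its summits lay 1759 to 1930 bp from the nearest TSS of the basic annotation and therefore close to the limit of the promoter. In Ctrl rep1 the summit lay 206 bp from the upstream end of the annotated gene, which is no TSS of the basic annotation. A peak 2171 bp from *Foxq1* in Ctrl rep1 narrowly missed the promoter limit. The cKO mean of *Foxp1* was 28.0 points above the Ctrl mean with Ctrl rep2 at 0, and 11.9 points below Ctrl rep1 alone.

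*Foxp2*, the gene linked to vocal learning, ranked at 63.1% in Ctrl rep1, 75.8% in cKO rep1 and 69.8% in cKO rep2. *Foxp4* ranked at 59.8%, 61.1% and 74.2% in the same order. In both genes the cKO libraries lay above both Ctrl libraries (exact two-sided permutation p = 0.333 for each, the smallest possible), by 41.3 and 37.8 points. Ctrl rep2 held no promoter peak at either gene, and without that library the differences were 9.74 and 7.84 points. Neither gene kept a promoter peak in any of the equal-size lists, so no comparison was possible there. At a stricter threshold (−log10 q of at least 5) *Foxp4* had no peak in cKO rep1, and its difference was 7.20 (exact permutation p = 1). Scaled depth, the fragments at the summit in multiples of the average depth over the whole genome of the same library, was 21.0, 11.1 and 19.9 at *Foxp2* and 16.03, 6.27 and 23.8 at *Foxp4* in Ctrl rep1, cKO rep1 and cKO rep2. Depth was lowest of the 3 in cKO rep1, as at 99.3% of all genes compared in this way, and at *Foxp4* it was highest in cKO rep2.

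Among broadly expressed genes, *Foxo3*, which keeps neural stem cells quiescent, was the single family member with a promoter peak in all 4 lists. That is 4% of the 25 genes with a promoter peak, against 13.3% of all protein-coding genes with one. It ranked at 94.6% in Ctrl rep1, 98.2% in Ctrl rep2, 95.8% in cKO rep1 and 91.1% in cKO rep2, on 132, 29, 61 and 105 fragments. In rank it was peak 1109, 2074, 1136 and 2013 of its list. The groups overlapped and differed by −2.90 points (93.5 ± 3.34 in cKO, 96.4 ± 2.53 in Ctrl, SD, n = 2 each; exact two-sided permutation p = 0.667). The summits fell within 52 bp of each other, 1026 to 1078 bp upstream of the nearest TSS, away from the start itself. A weaker region at the start was held by Ctrl rep1 and cKO rep2, on 48 and 41 fragments. With a promoter of 1 kb, *Foxo3* had a promoter peak in these 2 lists alone, and no forkhead gene had one in all 4.

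The 300 bases around that summit are intergenic and unmasked, and hold 32 CpG and 1 E-box of the form CAGATG or CAGCTG (either strand), shown in capitals, from the mm10 sequence (GRCm38.p6).
Foxo3 upstream peak, chr10:42277631-42277930, plus strand: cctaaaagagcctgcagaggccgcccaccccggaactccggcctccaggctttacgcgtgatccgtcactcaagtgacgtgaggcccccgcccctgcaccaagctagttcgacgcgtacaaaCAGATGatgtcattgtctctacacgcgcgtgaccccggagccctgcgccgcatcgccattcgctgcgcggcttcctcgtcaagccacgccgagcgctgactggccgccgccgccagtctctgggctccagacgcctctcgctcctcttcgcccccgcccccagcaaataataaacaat

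*Foxo1*, the insulin-responsive FOXO gene, ranked at 78.1%, 79.8% and 74.4% in Ctrl rep1, cKO rep1 and cKO rep2, with summits 28 to 116 bp upstream of its TSS. *Foxn3*, a checkpoint repressor, ranked at 71.7%, 78.1% and 73.2% in that order, and *Foxk1*, a repressor of autophagy genes, at 60.6%, 64.0% and 72.4%. The *Foxn3* peak lay 171 kb into the annotated gene, near an internal TSS. A region 17 bp from the gene's upstream end was held by Ctrl rep1 alone, on 12 fragments. Another 1138 bp from that end was held by Ctrl rep1 and cKO rep2, on 19 and 18 fragments. Both cKO libraries lay above both Ctrl libraries at *Foxn3* and *Foxk1*, by 39.7 and 37.9 points (exact two-sided permutation p = 0.333 for each). Without Ctrl rep2, which held no promoter peak at either gene, the differences were 3.88 and 7.64 points. *Foxn3* and *Foxk1* too had no promoter peak in any equal-size list. At the stricter threshold *Foxk1* had none in cKO rep1, and its difference was 5.92 (exact permutation p = 1). Scaled depth was 27.1, 11.1 and 23.2 at *Foxn3* and 16.03, 6.75 and 21.0 at *Foxk1* in Ctrl rep1, cKO rep1 and cKO rep2, so that *Foxk1* was highest in cKO rep2. *Foxn2* ranked at 77.1%, 80.5% and 73.7%, and *Foxj3* at 66.6%, 64.6% and 62.3%. *Foxm1* ranked at 63.7%, 68.7% and 58.8%, and its peak lay within 2 kb of the TSS of *Rhno1* as well. The *Foxj3* peak likewise lay within 2 kb of the TSS of *Frg2f1*. *Foxk2* (71.0% and 71.9%), *Foxo4* (51.3% and 58.1%) and *Foxj2* (49.7% and 51.8%) had a promoter peak in Ctrl rep1 and cKO rep2 alone.

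Of the 18 closed genes, 14 were patterning genes and 4 were tissue-restricted. *Foxa1*, *Foxb1*, *Foxc2*, *Foxd1*, *Foxd3*, *Foxe1*, *Foxe3*, *Foxf1*, *Foxi1*, *Foxl1*, *Foxl2*, *Foxn4*, *Foxq1* and *Foxs1* were the patterning genes with no promoter peak in any list, and the other 10 had one in at least 1 list. Of the 3 patterning genes with one in Ctrl rep1 and both cKO libraries, 2 shared it with a neighbour. The peak counted for *Foxa3*, a liver gene, lay 706 to 752 bp upstream of its own TSS and within 2 kb of the TSS of *Sympk*. The peak counted for *Foxh1*, a nodal signalling factor, lay 1597 to 1640 bp upstream and within 2 kb of the TSS of *Ppp1r16a*. *Foxa3* ranked at 77.9%, 69.7% and 89.4% in Ctrl rep1, cKO rep1 and cKO rep2, and *Foxh1* at 80.3%, 78.0% and 72.5%. The fragments cannot be assigned to one of the 2 genes of a pair.

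*Foxc1*, a gene of meninges and brain pericytes, was the patterning gene with a peak at its own start in 3 lists, 1 to 117 bp upstream. It ranked at 63.5% in Ctrl rep1, 62.4% in cKO rep1 and 50.5% in cKO rep2, on 29, 12 and 15 fragments. *Foxd2* had a peak in Ctrl rep1 (57.4%) and cKO rep2 (54.2%), and *Foxf2*, another pericyte gene, in Ctrl rep1 (44.8%) and cKO rep1 (60.2%). The *Foxf2* peaks were separate regions, 414 bp upstream of the TSS in Ctrl rep1 and 409 bp downstream in cKO rep1. They rested on 13 and 10 fragments, and neither passed the stricter threshold. Of 6 markers of meninges and mural cells, *Col1a1* and *Rgs5* had a promoter peak in Ctrl rep1 and cKO rep2, and none had one in the other 2 libraries. *Col3a1*, *Lum*, *Dcn* and *Pdgfrb* had none in any list. The part of such cells in the *Foxc1* and *Foxf2* peaks was not tested.

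The forkhead promoters were then searched for peaks held by libraries of a single group. At no forkhead promoter did both cKO libraries have a peak that both Ctrl libraries lacked, a pattern of 27 protein-coding genes (0.123%). *Foxa2*, a floor plate and endoderm gene, had one in cKO rep1 alone (0.0684% of protein-coding genes and 0.0656% of those with an island), on 11 fragments and 1874 bp from the nearest TSS. *Foxb2*, *Foxd4*, *Foxi2* and *Foxi3* had one in cKO rep2 alone, on 17, 13, 9 and 11 fragments, with summits 1142, 911, 1500 and 246 bp from their TSS. That is 10.3% of the 39 forkhead genes with an island, against 1.95% of all island genes and 1.78% of protein-coding genes. No forkhead gene had a promoter peak in Ctrl rep1 alone, against 3.88% of protein-coding genes and 4.00% of island genes.

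These single-list peaks were among the weakest of the family. The 23 promoter peaks of forkhead genes in cKO rep2 rested on a median of 35 fragments. At the stricter threshold, *Foxb2* and *Foxd4* kept their peak and *Foxa2*, *Foxi2* and *Foxi3* did not. With a promoter of 1 kb, *Foxd4* and *Foxi3* kept theirs. In equal-size lists of 7037 peaks none of the 5 did.

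*Foxn1*, a gene of the thymus epithelium, *Foxp3*, the regulator of regulatory T cells, *Foxr1* and *Foxr2* had no promoter peak in the basic annotation. A peak 836 bp from the upstream end of *Foxp3* was held by all 4 lists, on 91, 16, 30 and 76 fragments in Ctrl rep1, Ctrl rep2, cKO rep1 and cKO rep2. It lay 197 bp from the TSS of *Ppp1r3f*, which is read in the other direction. With the TSSs of all transcripts, chosen after the data were seen, *Foxp3* would count as open in 4 lists and *Foxn4* in 3.

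Over the 25 open genes, both cKO libraries ranked *Foxk1*, *Foxn3*, *Foxp2* and *Foxp4* above both Ctrl libraries, 4 of 25 (16%, background 20.5%), and no gene below both (background 2.80%). In all 4, Ctrl rep2 was at 0.

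Scaled depth at the summit was compared between the 3 libraries other than Ctrl rep2. At all 15 forkhead genes with a promoter peak in Ctrl rep1 and both cKO libraries it was lowest of these in cKO rep1, as at 99.3% of the 8734 protein-coding genes with such peaks, and at 12 of the 15 (80%) it was highest in Ctrl rep1, as at 82.7% of the 8734. The median was 28.4 in Ctrl rep1, 10.6 in cKO rep1 and 21.6 in cKO rep2 for the forkhead genes, and 32.1, 11.6 and 27.1 for all. *Foxo3* had the deepest peak, 81.4, 29.4 and 58.1 times the genome mean, with 8.37 in Ctrl rep2. *Foxa3*, *Foxk1* and *Foxp4* were the 3 with more depth in cKO rep2 than in Ctrl rep1, at ratios of 1.22, 1.31 and 1.49. The lowest ratios were those of *Foxc1* (0.464) and *Foxp1* (0.483). The summits of the 3 libraries lay within 200 bp of each other at 13 of the 15 genes, all but *Foxm1* and *Foxp2*.

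**Figure D3:**
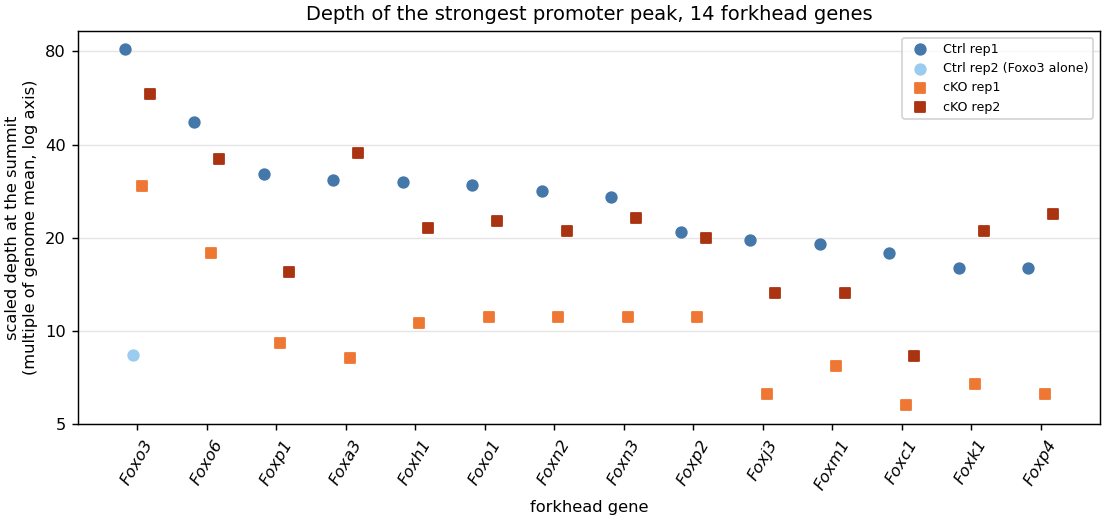
Scaled depth at the summit of the strongest promoter peak (multiples of the genome mean, log axis) for 14 forkhead genes with one in at least 3 lists, 1 symbol per library. The cKO rep1 squares lie below Ctrl rep1 and cKO rep2 at every gene, and the Ctrl rep2 point at *Foxo3* is the lowest of its column.

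Beyond promoters, gene bodies and 20 kb flanks of the 43 genes (3.90 Mb) held 121 peaks in Ctrl rep1, 8 in Ctrl rep2, 57 in cKO rep1 and 110 in cKO rep2. Per Mb these are 31.0, 2.05, 14.6 and 28.2 peaks, against 23.0, 2.82, 10.7 and 21.8 in the same windows of all protein-coding genes. On average there were 83.5 ± 37.5 peaks in cKO and 64.5 ± 79.9 in Ctrl (SD, n = 2 each), and the difference of 19 peaks was within the spread. Without Ctrl rep2 it was −37.5. The 4 lists merged into 140 regions, of which 34 lay in a forkhead promoter, 29 in the promoter of another gene and 77 more than 2 kb from any TSS. These distal regions lay mostly in introns (53) and between genes (22). The split used the TSSs of the basic annotation. A region 17 bp from the upstream end of *Foxn3*, and the *Foxp3* region 836 bp from its own, thus counted for another gene.

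*Foxn3* had 24 regions, *Foxp1* 15, *Foxo6* 8 and *Foxp2* 7, while 7 genes (*Foxb1*, *Foxd1*, *Foxd3*, *Foxe1*, *Foxf1*, *Foxi1* and *Foxl2*) had none. The gene bodies of *Foxp1*, *Foxp2* and *Foxn3* are the longest of the family, and all 7 empty windows belonged to patterning genes with short gene bodies. *Foxo6* is an exception in length, with 7 distal regions in a window of 60.3 kb. Of these, 4 recurred in Ctrl rep1 and both cKO libraries, 1 within its intron 4.1 kb from the gene start and 3 clustered 33.9 to 38.1 kb downstream. The middle one of the cluster (chr4:120252508-120253010) had 63, 38 and 74 fragments, and in both cKO libraries it ranked above the promoter of *Foxo6* itself. The windows of *Foxo6* held 5, 0, 5 and 8 peaks, overlapping between groups (exact two-sided permutation p = 0.667).

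**Figure D4:**
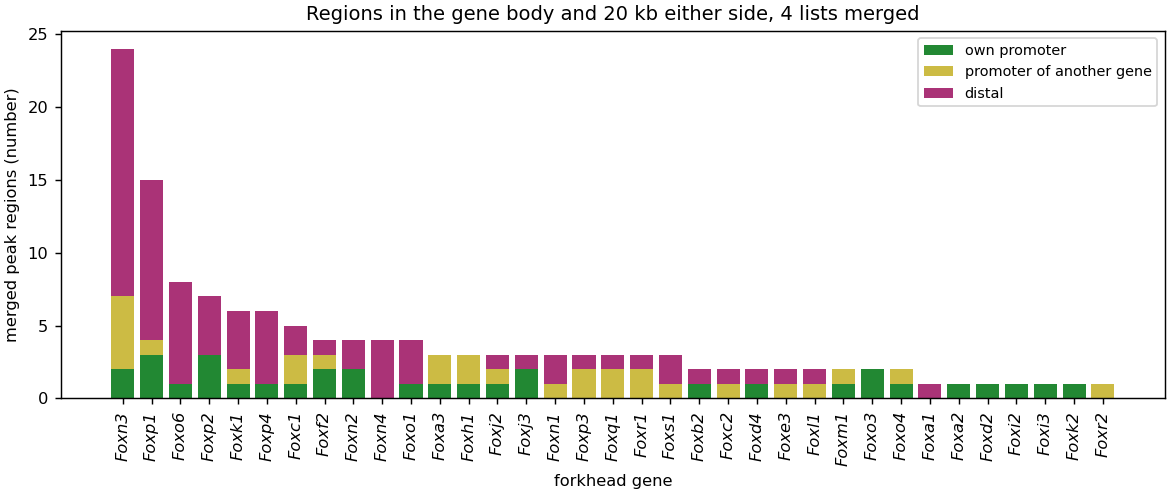
Merged peak regions (number) in the gene body and 20 kb either side of forkhead genes with at least 1. They are split by the TSSs of the basic annotation into its own promoter, the promoter of another gene, and distal. *Foxn3* and *Foxp1* lead with 24 and 15 regions.

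The strongest element in the *Foxp1* window was intronic. It lay 36.9 kb into the gene (chr6:99485202-99486148), away from every *Foxp1* promoter and 1138 bp from the TSS of the noncoding gene Gm22328. All 4 lists held it, on 100, 22, 52 and 91 fragments in Ctrl rep1, Ctrl rep2, cKO rep1 and cKO rep2, at ranks 1157, 2608, 997 and 1442. In each library it was the strongest peak of the window, and in Ctrl rep2 the sole one. In the *Foxn3* window the region held by all 4 lists (chr12:99506812-99509105) was weak, on 8, 15, 13 and 10 fragments, and mostly repeat. The region 16.2 kb upstream of *Foxd4* (chr19:24912393-24919090) was 98.8 to 100% repeat in all 4 lists, on 21, 40, 21 and 14 fragments, and ranked highest in Ctrl rep2, at 914. With the *Foxo3* promoter and the *Foxp3* region, these made 5 regions in all 4 lists, 3.57% of 140, against 5.56% of the 58652 regions of the whole series.

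**Figure D5:**
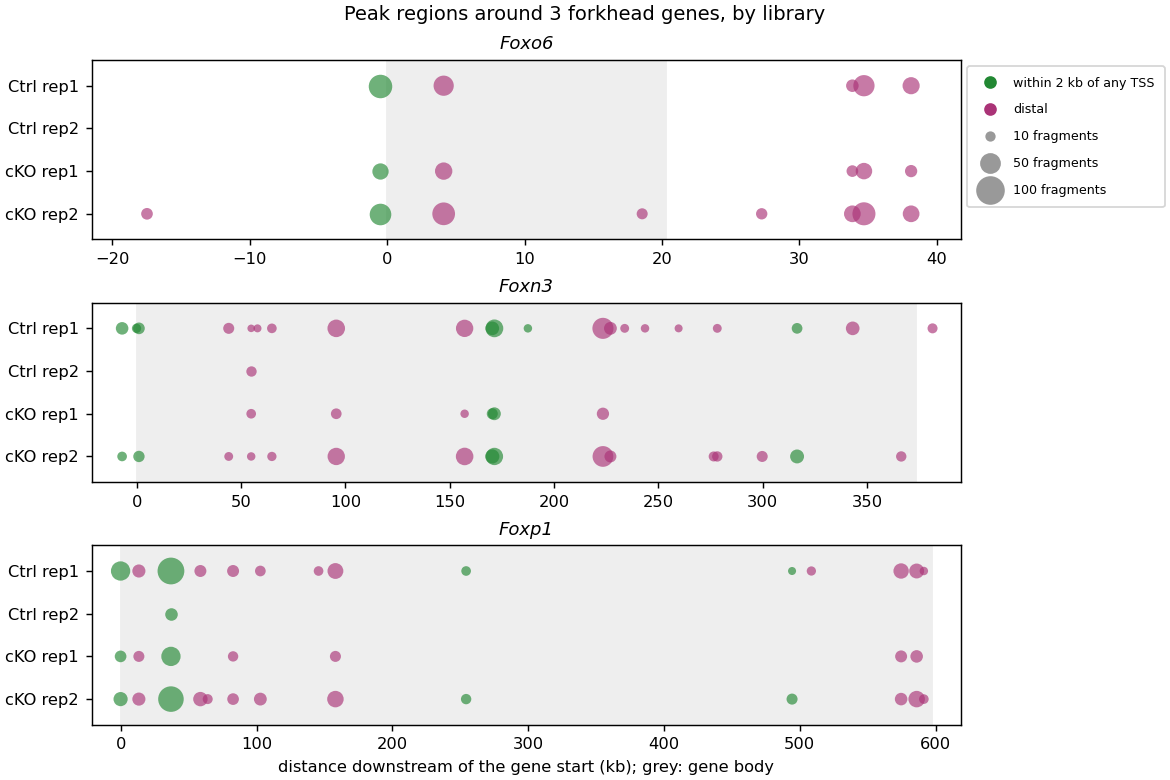
Peak regions around *Foxo6*, *Foxn3* and *Foxp1* by distance from the gene start (kb, x axis) and library (rows), with area in proportion to fragments at the summit. The large green point in the *Foxp1* row set is the intronic region held by all 4 libraries, and *Foxo6* shows a downstream cluster in 3 libraries.

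Of the 77 distal regions, 21 were held by Ctrl rep1 and both cKO lists, 21 by Ctrl rep1 and cKO rep2, 19 by Ctrl rep1 alone and 10 by cKO rep2 alone. The 2 cKO lists alone held none of them, and 0.692% of the regions of the series. Over all 140 regions, 32.1% were in Ctrl rep1 and both cKO lists (25.9% of all regions), 29.3% in Ctrl rep1 and cKO rep2 (27.1%), 19.3% in Ctrl rep1 alone (18.8%), 10.7% in cKO rep2 alone (14.1%) and 0.714% in Ctrl rep2 alone (2.84%). These differences were not tested. At *Foxn3* the strongest peak in Ctrl rep1 and cKO rep2 was also intronic (chr12:99339845-99340439), on 62 and 60 fragments, with 21 in cKO rep1. At *Foxp4* an intronic region (chr17:47914706-47915195) had 47, 26 and 53 fragments in Ctrl rep1, cKO rep1 and cKO rep2. It ranked above the *Foxp4* promoter in each of them.

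The sequences under the peaks were searched for 6 motifs in the 200 bp around each summit, on both strands. The forkhead motif TGTTTAC was found in 3 of the 34 forkhead promoter regions (8.82%) and in 1.65% of all 16758 promoter regions. These were 2 promoters of *Foxp2* and that of *Foxo4*. The 2 *Foxp2* regions were held by Ctrl rep1 alone, on 14 and 13 fragments, and the strongest *Foxp2* promoter region lacked the motif. The motif was found in 5 of the 77 distal regions (6.49%) and in 2.90% of all 41894 distal regions. Of the distal ones, 2 lay in *Foxp1*, and 1 each at *Foxp2*, *Foxp4* and *Foxn3*. Those at *Foxp2*, *Foxp4* and *Foxn3* were each held by 1 list. The counts are small, and in 400 bp they were 6 (17.6% against 3.06%) and 7 (9.09% against 5.46%). The homeodomain motif TAATTA was found in 15.6% of the distal regions (11.4% of all), the E-box in 35.1% (40.1%), the CCAAT box ATTGG in 28.6% (34.1%), the GC box GGGCGG in 10.4% (5.65%) and the cell cycle motif TTTGAA in 15.6% (14.4%). In promoter regions the GC box was found in 52.9% (45.4% of all). The CCAAT box was found there in 35.3% (30.8%), the E-box in 20.6% (21.0%), TAATTA in 2.94% (2.66%) and TTTGAA in 5.88% (7.14%).

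A pair of intronic *Foxp1* regions held a forkhead motif in Ctrl rep1 and both cKO lists, and they are shown for that motif, beside the intronic region of all 4 lists, the strongest of the window. Other *Foxp1* regions had more fragments than the pair. Capitals mark the forkhead motif, the homeodomain motif and the E-box on either strand. The first had 33, 20 and 22 fragments, the next 20, 15 and 19.
Foxp1 intron, forkhead and homeodomain motifs, chr6:98947901-98948200, plus strand: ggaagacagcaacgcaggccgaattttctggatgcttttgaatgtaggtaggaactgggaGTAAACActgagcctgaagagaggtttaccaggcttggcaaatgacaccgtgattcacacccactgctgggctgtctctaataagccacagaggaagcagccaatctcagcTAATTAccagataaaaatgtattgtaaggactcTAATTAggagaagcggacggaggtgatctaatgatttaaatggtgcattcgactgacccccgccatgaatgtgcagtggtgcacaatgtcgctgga
Foxp1 intron, forkhead motif and E-box, chr6:99439928-99440227, plus strand: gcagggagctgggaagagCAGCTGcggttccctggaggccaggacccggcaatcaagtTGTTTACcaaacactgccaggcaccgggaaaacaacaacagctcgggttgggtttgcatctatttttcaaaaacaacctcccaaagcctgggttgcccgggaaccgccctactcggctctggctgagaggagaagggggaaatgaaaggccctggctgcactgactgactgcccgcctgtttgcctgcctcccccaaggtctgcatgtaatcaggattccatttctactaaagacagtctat
Foxp1 intron, all lists, chr6:99485690-99485989, plus strand: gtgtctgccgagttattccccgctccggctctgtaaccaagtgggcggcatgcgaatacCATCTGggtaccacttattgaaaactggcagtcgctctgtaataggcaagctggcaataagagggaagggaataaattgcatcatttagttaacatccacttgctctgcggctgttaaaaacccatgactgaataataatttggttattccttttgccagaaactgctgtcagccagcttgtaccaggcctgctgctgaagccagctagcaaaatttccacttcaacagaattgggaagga
The region of all 4 lists holds 1 E-box and no TGTTTAC or TAATTA in its 300 bases, and 7 CpG against 32 in the *Foxo3* peak.

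Genes that work with the family were compared with island genes, since 20 of 20, 9 of 10 and 13 of 13 genes of the 3 lists have an island. Of 20 genes of FOXO signalling and its targets (*Akt2*, *Cdkn1b*, *Sesn3* and others), 19 had a promoter peak in Ctrl rep1 and in both cKO libraries, and 7 in Ctrl rep2, against the 87.4%, 63.8%, 85.2% and 13.6% of all island genes in Ctrl rep1, cKO rep1, cKO rep2 and Ctrl rep2. Of these 19 genes, 5 ranked higher in both cKO libraries and 2 lower (background 20.5% and 2.80% of genes with a promoter peak). Of 10 mitotic genes that act with *Foxm1*, such as *Ccnb1* and *Plk1*, 10, 0, 6 and 9 had one in Ctrl rep1, Ctrl rep2, cKO rep1 and cKO rep2, and 1 ranked higher in both cKO libraries. Of 13 partners and corepressors of forkhead repressors, among them *Tle1*, *Hdac2* and *Ctbp2*, 12, 5, 11 and 11 did, and 4 ranked higher. The list medians of the difference, cKO minus Ctrl, were 39.6, 29.3 and 2.07 points, against 25.6 for all island genes, 7.74 for forkhead genes with an island, 1.02 for all forkhead genes and 0 for all protein-coding genes. Ctrl rep2, where most genes of each list are at 0, enters every difference.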

How the data were processed

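ATAC-seq peaks of 4 libraries were analysed, grouped by the titles. According to the methods and labels, reads were cut short by the authors with Cutadapt and placed on mm10 by Bowtie2, blacklisted, mitochondrial and duplicate reads were removed, Tn5 offsets were corrected, and MACS2 (version 2.2.7.1) called peaks per library, with no control. Short trimmed reads place less surely in repeats. The deposited score, a display value, was left aside. The fold (a ratio), −log10 p and −log10 q (minimum 1.31) are the authors' values. The summit offset was deposited in bp. Peaks were ranked within a list by −log10 p. Whole fragment depth was recovered from fold and p (pseudocount 1, tolerance 0.01, at least 99.986% of peaks). The counting precision is limited at a depth near 18 fragments. GENCODE M21 basic gave 77221 TSSs. CGIs were computed (at least 200 bp, GC 50%, ratio 0.6), 19114 in all. Regions were merged at 1 bp of overlap. Python 3.11.15, pandas 2.3.3 and scipy 1.17.1 were used, and functions were tested on simulated data.

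Members, groups and lists were chosen with earlier results of these data known. Full values are given for members open in 4 lists, members with separated groups (5 at most each way), the 5 with the highest mean percentile and the 5 with most window peaks. Some genes counted in the totals are not reported here. Alternatives were a 1 kb promoter, any overlap, equal-size lists, stricter q, rank by fold, mid-ranks, no repeat-masked peaks, other flanks or overlaps, each library left out, the replicate block and, added after seeing the data, TSSs of all transcripts.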

Additional observations from a re-analysis of the deposited data

How the results depend on the processing

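Ctrl rep2, with 7037 peaks, set most differences between groups. In equal-size lists the difference in the number of forkhead genes with a promoter peak was −0.5 and that in mean percentile −0.798, and *Foxp1*, left with a peak in Ctrl rep1 alone, differed by −39.9 points. There 8, 1, 4 and 4 forkhead genes kept a peak in Ctrl rep1, Ctrl rep2, cKO rep1 and cKO rep2. Placing genes that lack a peak at their mid-rank gave a mean percentile difference of 0.993 instead of 14.8, and differences for *Foxp2*, *Foxp4*, *Foxn3*, *Foxk1* and *Foxo1* of 18.4, 14.8, 16.8, 15.0 and 15.1 points instead of 41.3, 37.8, 39.7, 37.9 and 38.0. Leaving out each library in turn, the difference ranged from 0 to 19 genes, from −0.0397 to 29.7 points of mean percentile, and from −37.5 to 75.5 window peaks (−7.5 without cKO rep2). Without Ctrl rep2, *Foxo1* differed by −0.994 points (highest 77.1), *Foxo6* by −1.997 (highest 79.8) and *Foxp1* by −11.9 (highest 67.9), the highest values coming without another library. The 4 genes ranked higher in cKO became 0 in equal-size lists, where none of the 4 kept a peak in any list and their order could not be tested, and 2 at stricter q, and 4 to 14 with a library left out. Those ranked lower, 0 in the report, were 0 to 6 with a library left out and 1 with the TSSs of all transcripts, an alternative added after seeing the data. Regions in all 4 lists numbered 3 instead of 5 at stricter q, without repeat-masked peaks and in equal-size lists. Of 183 values recomputed, 161 did not reverse and, where no test was made, stayed within the replicate spread, 1.5 times for counts or the binomial interval for motif shares. This tally does not measure robustness. It includes the 4 genes above in equal-size lists, where no list held a peak. It also includes *Foxk1* and *Foxp4* at stricter q, with differences of 5.92 and 7.20, and the mid-rank mean of 0.993, since the Ctrl SD was 21.0 points. The cause of the shifts was not tested, apart from the fewer peaks and libraries that these settings leave.

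Whether replicate numbers pair the samples is not stated in the labels. Deviations of same-numbered libraries correlated at 0.0530 over 13196 genes, which cannot decide this, since Ctrl rep2 had no promoter peak at most genes. With the replicate block 7 genes ranked higher in cKO in both pairs, against 4 unpaired. None of the 7 had a promoter peak in Ctrl rep2, so that any peak in cKO rep2 placed that pair higher. The share over all genes with this block is not given, so the count is not a result about the family. Depth limits weak peaks, of about 10 fragments.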
